A study of Rattus norvegicus with 24 samples.

Results

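The proteasome and ubiquitin-conjugating genes were followed through the cartilage zones of the proximal tibial growth plate of 1-week-old rats. A gene was taken as a member when its single symbol in the platform annotation began with Psma to Psmg followed by a digit, or with Ube2 followed by a letter, with Ube2c left out. This gave 74 of the 14217 genes that had 1 symbol, and 72 of the 74 rose above the filter on low signal and were tested. Ube2d2b and Ube2u did not pass it. The members comprised 44 proteasome genes, of which 44 were tested, 28 ubiquitin-conjugating enzymes, of which 26 were tested, and 2 genes named for a binding partner, Psmc3ip and Psme3ip1. Psmc3ip encodes a recombination factor and is not a proteasome subunit. Genes measured only by probe sets that the annotation shares among several symbols, such as Psmb6, Psme3, Ube2d3, Ube2e1 and Ube2v1, are not members.

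The proteasome is the main protease of the cytosol and nucleus. Proteins are marked for it by chains of ubiquitin, which an activating enzyme passes to a conjugating enzyme (E2) and a ligase then places on the substrate. The barrel-shaped 20S core, built of alpha and beta rings, cuts the protein, while the 19S cap recognises the ubiquitin, removes it and unfolds the substrate with a ring of ATPases, and core and cap together form the 26S proteasome. Assembly chaperones build the particle, alternative caps such as PA28 and PA200 open the core without the 19S cap, and interferon replaces the catalytic beta subunits by immunoproteasome subunits. In the growth plate, chondrocytes pass from a resting pool to dividing columns and then enlarge as hypertrophic cells.

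Zones were separated by hand from 60 µm frozen sections of untreated, non-castrated animals, and 50 to 100 ng of total RNA from each was amplified in a pair of labelling cycles and hybridised to 1 array. The 24 arrays covered epiphyseal cartilage (n = 4, animals 1, 2, 4 and 5) and the resting, proliferative, proliferative-to-hypertrophic transition and hypertrophic zones (n = 5 each, animals 1 to 5). Male rats are named in the source labels of 3 zones (resting, proliferative and hypertrophic), whereas the labels of epiphyseal cartilage and of the transition zone use another wording and leave the sex out, so zone and any difference behind that wording cannot be told apart in comparisons that cross it. Each dissected zone is a mixed tissue, so fewer cells of a type and less RNA per cell cannot be told apart.

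Values are MAS5 signals on a linear scale, scaled by the authors to one trimmed mean, and the number of arrays limits their precision. The median signal per array lay between 135 and 245. From epiphyseal cartilage through the resting, proliferative and transition zones to the hypertrophic zone it averaged 192, 179, 168, 149 and 180.4. Cartilage markers were above the array median in every array (7 of 7 genes). In the hypertrophic over the proliferative zone 6 of 6 hypertrophy markers such as Col10a1 were higher, against 19.3% of all tested genes. Markers of leukocytes (6 of 6), osteoclasts and macrophages (7 of 7) and erythroid cells (4 of 4) were higher in the hypertrophic over the transition zone, against 12.9% of all tested genes. So were 4 of 5 muscle, 2 of 3 endothelial and 2 of 2 osteoblast markers. Some of them were dim in the transition zone, such as Ptprc at a mean of 38.1 and Coro1a at 28.9. Markers that passed the filter on low signal mainly through arrays where they are high carry no weight, so these counts are a description. In the proliferative over the resting zone, 3 of 5 muscle and 2 of 6 leukocyte markers were lower, against 7.45% of all tested genes. The part of these cells in the results was not tested. The log2 ratio of 3' to 5' signal of actin, a measure of RNA quality, averaged 4.03, 4.03, 4.47, 4.46 and 4.31 from epiphyseal cartilage to the hypertrophic zone. That of GAPDH averaged 2.91, 2.76, 2.67, 2.57 and 2.96 in the same order. The part of RNA quality in the results was not tested.

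Most proteasome genes differed across the 5 zones, and about as large a share of the ubiquitin-conjugating members differed as of all tested genes. By limma's moderated F test on log2(signal + 16), blocked by animal, and at a Benjamini-Hochberg adjusted p below 0.05 over all tested probe sets, 54 of the 72 members differed across zones, against a background of 60.6% of 10539 tested genes. Of the 30 subunits of the 26S particle, 29 (96.7%) differed, and of all 44 proteasome genes 39 (88.6%). Psmb8 and Psmb9, counted among the 39, passed the filter on low signal only through hypertrophic and epiphyseal arrays, so their calls carry no weight. Among the 26 ubiquitin-conjugating members 14 (53.8%) differed. The size of the differences was less set apart than these shares. The median range between zone means was 0.896 log2 units for the 26S subunits, 0.894 for the proteasome genes and 0.682 for the ubiquitin-conjugating members. For all tested genes it was 0.847. The 26S subunits were also brighter, with a mean log2(signal + 16) of 11.59 in the transition zone, against 9.26 for all tested genes. The part of brightness in the shares was not tested. Restricted to the resting, proliferative and hypertrophic zones, whose source labels share their wording, 44 members differed, against a background of 52% of genes, among them 21 of the 30 26S subunits and 12 ubiquitin-conjugating members.

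The 26S subunits were low in epiphyseal cartilage and the resting zone, higher in the proliferative zone, and highest in the transition zone. The mean log2(signal + 16) over the 30 subunits was 10.83 ± 0.41 in epiphyseal cartilage (SD, n = 4), 10.76 ± 0.22 in resting, 11.16 ± 0.18 in proliferative, 11.59 ± 0.17 in transition and 11.36 ± 0.20 in hypertrophic cartilage (SD, n = 5 each). Of the 30 subunits, 23 (76.7%) had their highest zone mean in the transition zone and 19 (63.3%) their lowest in the resting zone, whereas 20.5% of all tested genes were highest in the transition zone and 19.5% lowest in the resting zone. Animals lay apart within zones. The arrays of animals 4 and 5 held the lowest values of the 26S mean in epiphyseal cartilage, the resting and the proliferative zones, while animal 5 had the highest transition value, 11.80, and the lowest hypertrophic value, 11.01. From the resting zone on, the array median signal moved the opposite way between zones. With arrays scaled to one median, the median log2 fold change of the 26S subunits in the proliferative over the resting zone was 0.527 in place of 0.427. That of the proteasome genes in the transition over the proliferative zone was 0.515 in place of 0.353. All tested probe sets had medians of 0.079 and 0.09 in these 2 comparisons under that scaling. The part of the array median in the result was not tested otherwise.

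**Figure D1:**
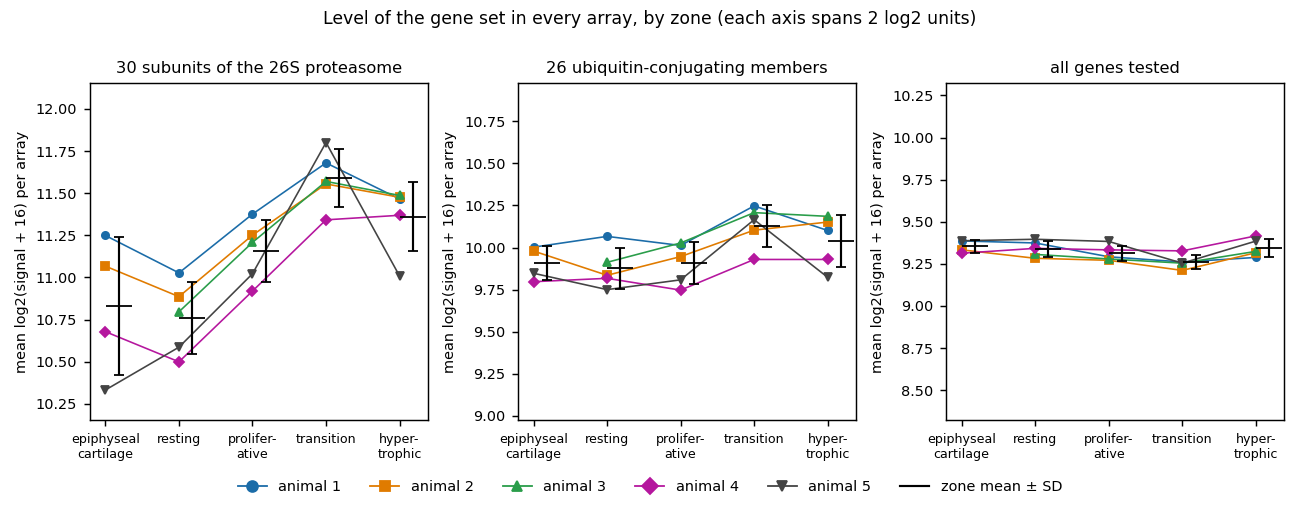
Mean log2(signal + 16) per array over the 30 subunits of the 26S proteasome (left), the 26 tested ubiquitin-conjugating members (middle) and all 10539 tested genes (right), by zone, with 1 line per animal and the zone mean ± SD beside it. The 26S mean was 11.59 ± 0.17 in the transition zone, against 11.16 ± 0.18 in the proliferative zone, while the mean of all genes stayed within 9.26 to 9.36.

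The 26S subunits also varied together from array to array. The median Pearson correlation between pairs of the 30 subunits over the 24 arrays was 0.653, and 0.468 after each zone's mean was removed. For the 26 ubiquitin-conjugating members the median was 0.124 and 0.068 within zones, and for all tested genes 0.002 and 0.004. These points share the scaling of each array and the animal's tissue, so the correlations are a description. Psmc5 followed the mean of the 26S subunits most closely (r = 0.939, 24 arrays), and Psmb2 and Psma2 came next at 0.915 and 0.908. Ube2l3 (0.832) and Ube2k (0.796) were the ubiquitin-conjugating members nearest to it, and Psmc3ip ran opposite at -0.692.

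Between the resting zone and epiphyseal cartilage 1 member passed the test. Higher calls numbered 1 of the 72 tested members, against a background of 1.17% of genes, and no lower call was made by limma, against a background of 1.76%. At an unadjusted p below 0.05, 2 members were higher and 7 lower. The share of all genes at that threshold was not counted, so these numbers have no background beside them. The 1 call was Ube2e3, at more than 2-fold, where calls of at least 2-fold made up 0.626% of genes higher and 1.05% lower. The median log2 fold change of the 26S subunits was -0.06, against 0.02 for all tested genes.

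In the proliferative over the resting zone, 12 members were higher (background 8.22%) and 1 was lower (background 7.45%). The fold change was positive for 30 of the 30 26S subunits, with a median of 0.43 on the log2 scale and a range of 0.13 to 0.72, and 8 of the 30 were called higher. No member was called at 2-fold or more by limma, against a background of 2.15% of genes higher and 3.98% lower. The median over all tested genes was 0.02. Within animals, the median over the subunits lay between 0.34 and 0.44 in 5 of 5 animals. The number of members called higher fell to 4 without animal 2 and to 4 without animal 3, and was 3 without the animal block.

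In the transition over the proliferative zone, 19 members were higher (background 10.8%) and 1 was lower (background 13%). Of the 30 26S subunits 29 had a positive fold change, with a median of 0.41, against -0.03 for all tested genes, and 11 were called higher. At 2-fold or more, 2 members were higher (background 3.39%), Psmc5 and Psme4, and 1 was lower (background 5.09%), Ube2t. The within-animal medians lay between 0.30 and 0.40 in animals 1 to 4 and at 0.77 in animal 5. Without the transition array of animal 5, the median over the subunits was 0.30 and 14 members were called higher.

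In the hypertrophic over the transition zone the direction turned. Higher calls numbered 7 (background 12.9%) and lower calls 10 (background 13.1%), and 24 of the 30 26S subunits had a negative fold change, with a median of -0.25 on the log2 scale, against -0.01 for all tested genes. Among the 26S subunits, 6 were called lower. At 2-fold or more, 3 members were higher (background 7.44%), Psmb8, Psmb9 and Psme4, and none of the lower calls reached 2-fold (background 2.43%). Psmb8 and Psmb9 passed the filter on low signal only through hypertrophic and epiphyseal arrays, so their calls carry no weight in these counts. The within-animal medians were negative in 5 of 5 animals but ranged from -0.05 to -0.69, the last in animal 5. This comparison depended on how arrays were scaled. With arrays scaled to one median, the median over all tested probe sets was -0.24 in place of 0.02, that of the 26S subunits was -0.52 in place of -0.25, and the split was 3 higher and 28 lower. With quantile normalization it was 6 higher and 6 lower. Lower calls numbered 5 without animal 2 or animal 5, 6 without animal 1, 5 without the transition array of animal 5 and 6 without the hypertrophic array of animal 5. Higher calls numbered 2 without animal 2 and 4 without animal 3.

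In the hypertrophic over the proliferative zone, 20 members were higher (background 19.3%) and 7 were lower (background 22.5%). The median over the 26S subunits was 0.17, against -0.04 for all tested genes, and 8 of the 30 were called higher and 2 lower. At 2-fold or more, 6 members were higher (background 10.3%), Psme4, Psmb8, Ube2h, Ube2g2, Psmd8 and Psme1, and 1 was lower (background 8.98%), Ube2t. Psmb8 passed the filter on low signal only through hypertrophic and epiphyseal arrays, so its call carries no weight in these counts. With arrays scaled to one median, 12 members were higher and 7 lower, and higher calls numbered 12 without animal 2, 13 without animal 3 and 13 without the animal block.

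**Figure D2:**
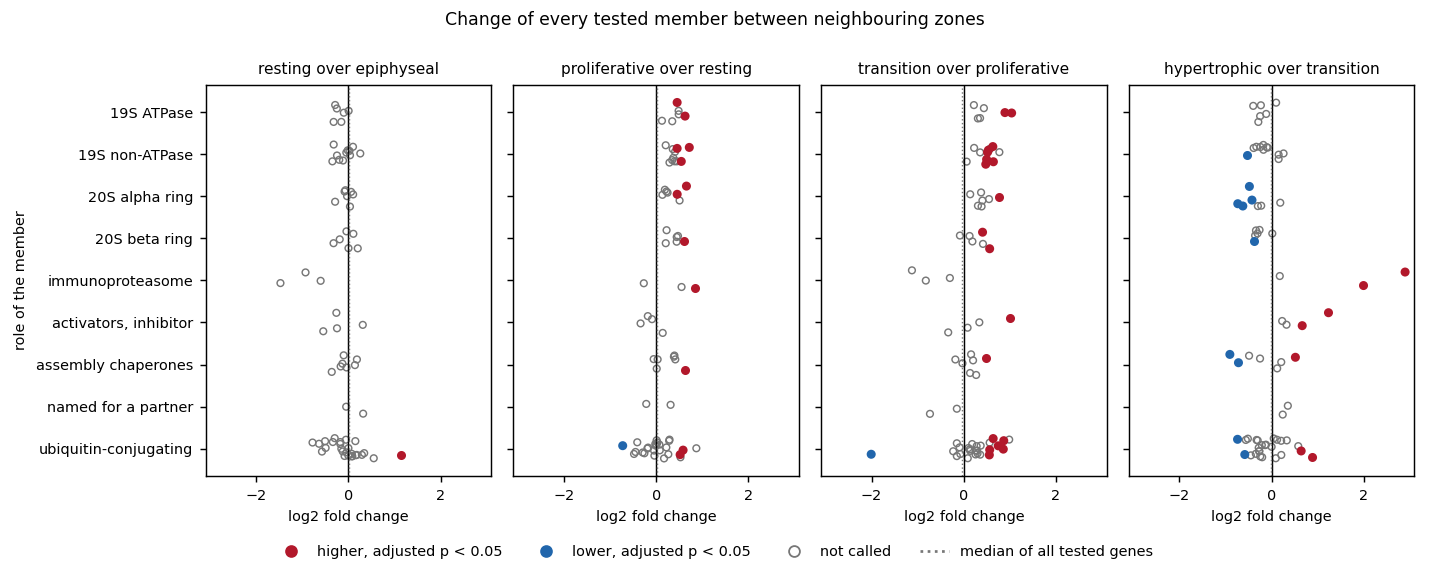
Log2 fold change of every tested member between neighbouring zones, grouped by role, with 1 point per gene, filled where the adjusted p was below 0.05. In the proliferative over the resting zone the 30 26S subunits (the upper 4 rows) all lie right of 0, and in the hypertrophic over the transition zone 24 of them lie left of it.

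Promoter sequences are shown for members with a called change whose windows hold a motif that was searched, as examples of that motif. The windows run from 250 bases before to 50 bases after the gene start and come from RefSeq, build GRCr8, which listed 67 of the 74 members. The motif TGACNNNGC, the core of the antioxidant response element bound by Nfe2l1 and Nfe2l2, was searched on both strands. It was found in 7 of 40 proteasome promoters (17.5%), in 5 of 26 promoters of 26S subunits (19.2%) and in 7 of 25 promoters of ubiquitin-conjugating members (28.0%), against 12.2% of 27457 promoters in the table. The promoters of Psme4, Ube2g2, Psmb2 and Psmd3 are given 5′ to 3′ with each match in capitals. Of the 12 members with the smallest F test p, 3 held the motif and 9 did not, among them Psmc5, Psmd2, Psmc1 and Psma4. Coordinates and strands are chr14:108706393-108706692 (plus) for Psme4, chr20:11005011-11005310 (minus) for Ube2g2, chr5:144254808-144255107 (plus) for Psmb2 and chr10:84139688-84139987 (plus) for Psmd3.
Psme4: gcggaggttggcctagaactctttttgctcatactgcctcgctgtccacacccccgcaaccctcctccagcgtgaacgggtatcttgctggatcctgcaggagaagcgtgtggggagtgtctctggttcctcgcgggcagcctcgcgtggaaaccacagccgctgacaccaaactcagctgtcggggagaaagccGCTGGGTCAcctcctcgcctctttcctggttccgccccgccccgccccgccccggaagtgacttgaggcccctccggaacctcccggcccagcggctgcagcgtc
Ube2g2: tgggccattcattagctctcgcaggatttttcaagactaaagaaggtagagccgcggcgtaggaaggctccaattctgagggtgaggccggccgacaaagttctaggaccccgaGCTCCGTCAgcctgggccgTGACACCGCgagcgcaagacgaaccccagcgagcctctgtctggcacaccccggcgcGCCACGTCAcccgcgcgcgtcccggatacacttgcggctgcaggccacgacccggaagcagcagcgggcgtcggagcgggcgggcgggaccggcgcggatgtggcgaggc
Psmb2: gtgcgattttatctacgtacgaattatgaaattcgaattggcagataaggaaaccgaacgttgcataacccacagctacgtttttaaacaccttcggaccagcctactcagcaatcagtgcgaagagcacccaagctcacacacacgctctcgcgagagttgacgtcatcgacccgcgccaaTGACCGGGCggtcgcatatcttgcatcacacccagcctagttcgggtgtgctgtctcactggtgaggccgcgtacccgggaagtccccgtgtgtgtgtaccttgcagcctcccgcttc
Psmd3: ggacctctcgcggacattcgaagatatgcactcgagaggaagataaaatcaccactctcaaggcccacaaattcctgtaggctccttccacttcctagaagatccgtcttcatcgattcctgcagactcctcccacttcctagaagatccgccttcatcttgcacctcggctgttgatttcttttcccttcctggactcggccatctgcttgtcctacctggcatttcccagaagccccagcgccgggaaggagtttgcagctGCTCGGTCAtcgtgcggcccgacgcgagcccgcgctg

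Counted from the gene start, the first base of the match lay at -55 in Psme4, at -68 in Psmb2 and at 14 in Psmd3. The match in Psmb2 overlaps a CCAAT that begins at -72. Ube2g2 held 3 matches, at -136, -117 and -60. These matches describe the letters of the windows and were not tested as sites.

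The cell cycle homology region TTTGAA and the motif CCAAT were searched in the same windows on both strands. TTTGAA was found in 15.0% of proteasome promoters and 8.0% of ubiquitin-conjugating ones, against 18.2% of all promoters. CCAAT was found in 20 of 40 proteasome promoters (50.0%) and in 9 of 25 ubiquitin-conjugating ones (36.0%), against 37.7% of all. The promoter of Ube2t, a member lower in the same comparisons as the cell cycle markers, held CCAAT but no TTTGAA. It is given with its CCAAT matches in capitals (chr13:48954916-48955215, plus strand).
Ube2t: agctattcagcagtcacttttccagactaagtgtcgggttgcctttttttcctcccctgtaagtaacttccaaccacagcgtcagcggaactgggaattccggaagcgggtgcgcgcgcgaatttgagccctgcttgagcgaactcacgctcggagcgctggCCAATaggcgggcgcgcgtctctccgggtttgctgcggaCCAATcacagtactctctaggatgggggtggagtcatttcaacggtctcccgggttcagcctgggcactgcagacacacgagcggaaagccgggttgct

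The matches in Ube2t began at -88 and -49 from the gene start.

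The 19S ATPases form the ring that unfolds substrates and opens the core, and 6 of 6 tested members differed across the 5 zones (background 60.6%). Psmc5, one of these ATPases, gave signals of 869, 664, 383 and 349 in epiphyseal cartilage (animals 1, 2, 4 and 5) and of 614, 426, 509.7, 339 and 366 in the resting zone (animals 1 to 5, as in all lists of 5 values that follow). In the later zones its signals were 981, 869, 512, 702 and 506 in the proliferative, 1473, 1349, 1516, 1034 and 1924 in the transition and 1297, 1438, 1350.5, 1433 and 736 in the hypertrophic zone. Every transition array lay above every proliferative array, and the hypertrophic array of animal 5 lay far below the other 4. limma gave a log2 fold change of 1.04 ± 0.21 (SE, adjusted p = 0.000852) in the transition over the proliferative zone, and 0.63 ± 0.21 (SE, adjusted p = 0.0489) in the proliferative over the resting zone. The call over the resting zone was lost without the animal block and without animal 2.

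Psmc1, whose product takes part in opening the gate of the core, passed no test among the first 3 zones and was higher in the transition and hypertrophic zones. Its signals were 1176, 1302, 1435 and 684 in epiphyseal cartilage and 1054, 999, 1004, 1110.4 and 930.4 in the resting zone. They were 1355, 1161, 1066, 879.7 and 1155 in the proliferative, 2148, 2015, 1937, 1799 and 2566 in the transition and 2054, 2766, 2069, 2269 and 2055 in the hypertrophic zone. No transition or hypertrophic array overlapped with a proliferative array. The fitted log2 fold change was 0.89 ± 0.17 (SE, adjusted p = 0.00031) in the transition over the proliferative zone and 0.99 ± 0.17 (SE, adjusted p = 3.59e-05) in the hypertrophic over the proliferative zone.

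Psmc4, another ATPase of the ring, was higher in the proliferative over the resting zone. Its signals were 1879.5, 1307, 1114 and 1295 in epiphyseal cartilage and 1579.8, 1216, 1094, 1029 and 1313 in the resting zone. They were 2153, 1492, 1824, 1718 and 1388 in the proliferative, 3084, 1789, 1959.9, 1788 and 2471 in the transition and 2282, 1995, 2358, 1739.8 and 1704 in the hypertrophic zone. The proliferative and resting values overlapped, but the proliferative array was higher in 5 of 5 animals, with a log2 fold change of 0.46 ± 0.13 (SE, adjusted p = 0.0227). This call was lost without the animal block and without animals 1, 2, 3 or 4, where the adjusted p passed 0.05.

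**Figure D3:**
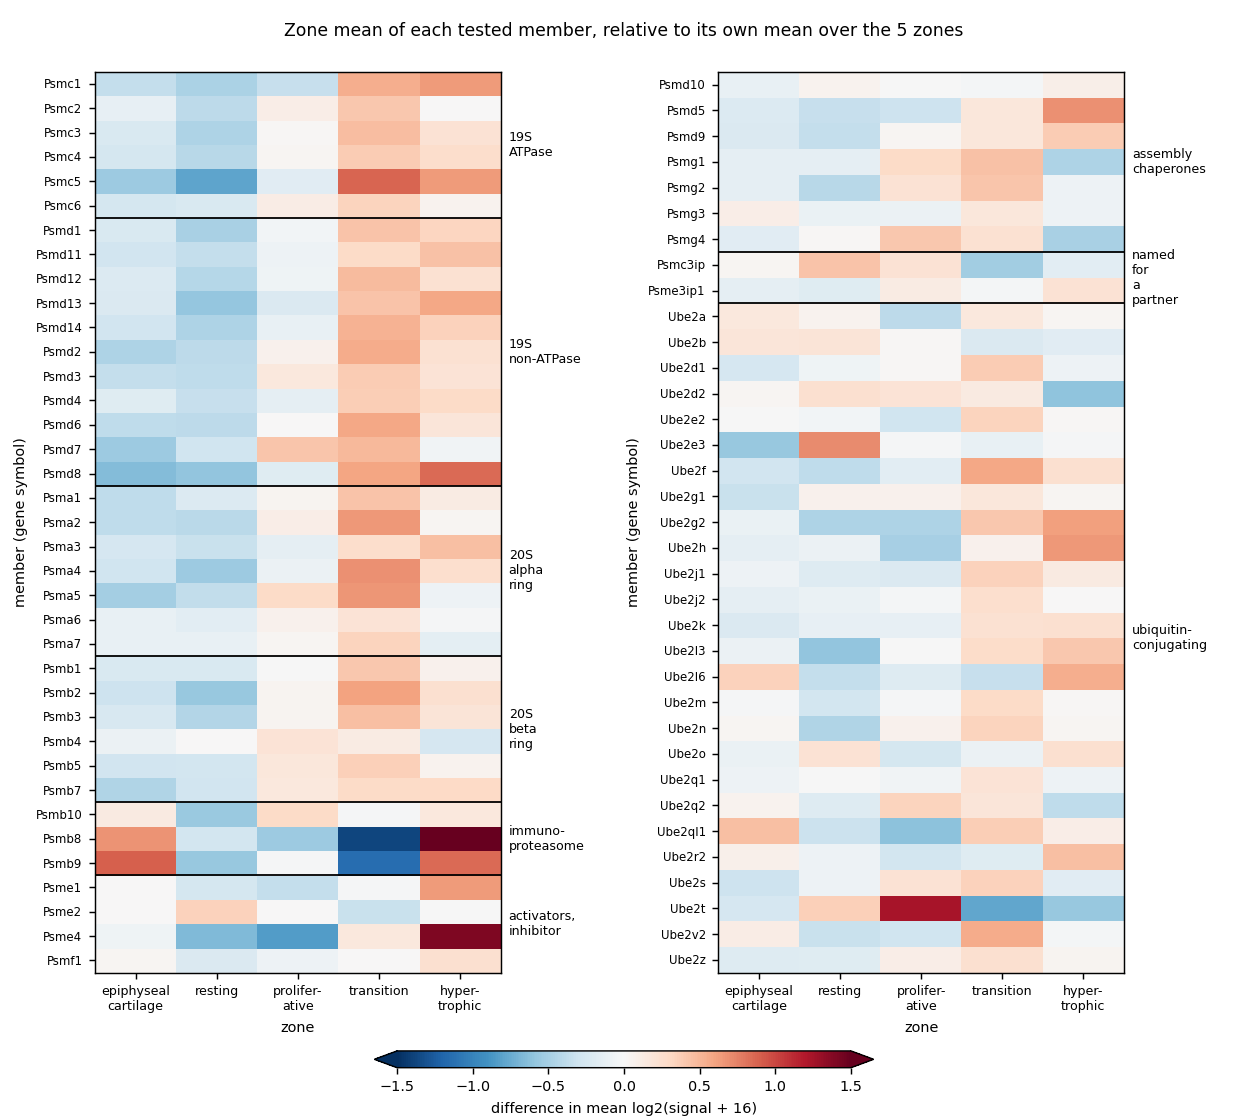
Zone mean of log2(signal + 16) of each of the 72 tested members, as the difference from that member's mean over the 5 zones, grouped by role, with red for higher and blue for lower. Most 19S and 20S subunits are blue in epiphyseal cartilage and the resting zone and red in the transition zone, where 23 of the 30 had their highest mean, whereas the assembly chaperones and ubiquitin-conjugating members hold several patterns.

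The other subunits of the 19S cap recognise ubiquitin and hold the cap together, and 11 of 11 differed across the 5 zones (background 60.6%). Psmd2, the scaffold that binds shuttle proteins carrying ubiquitinated cargo, gave 3828, 2581, 2742 and 2070.3 in epiphyseal cartilage and 3466, 2288, 2835, 3165 and 2813 in the resting zone. Its signals were 4764, 3672, 4556, 3737 and 3279.9 in the proliferative, 6588, 4286, 6691, 5198 and 5554 in the transition and 4860, 3808, 5306, 4851 and 3637 in the hypertrophic zone. Values overlapped between neighbouring zones, yet within animals each step up to the transition zone from the resting zone was positive in 5 of 5. The log2 fold change was 0.46 ± 0.12 (SE, adjusted p = 0.012) in the proliferative over the resting zone and 0.49 ± 0.12 (SE, adjusted p = 0.00443) in the transition over the proliferative zone. Both calls were lost without the animal block, and the call over the resting zone also without animal 2 or 3.

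Psmd13, a lid subunit, gave 1394, 1124, 621 and 928 in epiphyseal cartilage and 931, 928, 628, 572 and 792 in the resting zone. Its signals were 1208, 1086, 1102, 801 and 757 in the proliferative, 1588, 1512, 1282, 1362 and 1993 in the transition and 2537, 1944, 1359.9, 1664 and 1280.2 in the hypertrophic zone. The transition and hypertrophic arrays all lay above the proliferative arrays. On the log2 scale the change was 0.64 ± 0.17 (SE, adjusted p = 0.00715) in the transition over the proliferative zone and 0.80 ± 0.17 (SE, adjusted p = 0.000506) in the hypertrophic over the proliferative zone.

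Psmd7, which encodes the partner of the deubiquitinase subunit Psmd14, gave 3162, 3559, 2386 and 1911 in epiphyseal cartilage and 3919, 4376, 2939, 2640.1 and 2483 in the resting zone. Its signals were 6462, 6548, 5722, 3813 and 4367 in the proliferative, 6292, 5690.1, 4629.9, 4945 and 6071 in the transition and 3701, 3708, 4295, 2842 and 4647 in the hypertrophic zone. It was higher in the proliferative over the resting zone, with a log2 fold change of 0.72 ± 0.16 (SE, adjusted p = 0.00211), and lower in the hypertrophic over the transition zone, at -0.53 ± 0.16 (SE, adjusted p = 0.0139). The fall was lost under quantile normalization, without the animal block, without animal 1, 2 or 4 and without the transition array of animal 5. A second probe set of the gene passed the limma test in neither comparison. Its log2 fold change was 0.47 (adjusted p = 0.0668) for the rise and -0.41 (adjusted p = 0.0857) for the fall.

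Psmd3, a lid subunit, had proliferative arrays that all lay above its resting arrays. It gave 1544, 1109, 1313 and 969 in epiphyseal cartilage and 1188, 1211, 1029, 1356 and 1202 in the resting zone. Its signals were 2001, 1594, 1485, 2069.6 and 1663 in the proliferative, 2531, 1768, 1697, 2189 and 2140.2 in the transition and 2327, 1767, 1746, 1568 and 1700.4 in the hypertrophic zone. The log2 fold change in the proliferative over the resting zone was 0.55 ± 0.13 (SE, adjusted p = 0.00443), and no later step passed the test. Psmd8, also of the lid, was higher in the hypertrophic over the proliferative zone, with 1015 ± 317 against 484 ± 164 (SD, n = 5 each), at an adjusted p of 0.0134 that was lost without animal 2, 3 or 4. Psmd14, the deubiquitinase itself, and Psmd4, a ubiquitin receptor, were higher in the transition over the proliferative zone by 0.63 and 0.51 on the log2 scale. Another tested probe set of Psmd14 gave 0.28 there and did not pass the test.

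The 20S alpha ring gates the entry to the core, and 6 of 7 alpha genes differed across the 5 zones (background 60.6%). Psma4 gave 2571, 2443, 2005 and 1957 in epiphyseal cartilage and 2406, 2524, 2098, 1240 and 1490.5 in the resting zone. Its signals were 2863, 3358, 3172, 1762 and 2153 in the proliferative, 4219.8, 4822, 4607, 3515 and 5149 in the transition and 2958, 3211, 3940, 3106 and 3334 in the hypertrophic zone. All transition arrays lay above all proliferative arrays, and the log2 fold change was 0.77 ± 0.15 (SE, adjusted p = 0.00042). Of the 7 alpha genes, 4 were lower in the hypertrophic over the transition zone (background 13.1%). limma gave a log2 fold change of -0.73 ± 0.18 (SE, adjusted p = 0.0049) for Psma5, -0.62 for Psma2, -0.48 for Psma7 and -0.42 for Psma4. The call of Psma5 held under every alternative run, whereas that of Psma7 was lost under quantile normalization, without animal 2 or 5 and without the hypertrophic array of animal 5. The calls of Psma2 and Psma4 were lost without animal 2 or 5, without the animal block and without the transition array of animal 5. Thus Psma5 was the only alpha gene still called lower without animal 2 or 5. Psma5 was also higher in the proliferative over the resting zone, at 0.66 ± 0.18 (SE, adjusted p = 0.0159), with no overlap between the arrays of these zones, a call lost without the animal block and without animal 3. Psma3, which shares a probe set with a related locus, was measured here by a probe set of its own.

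The constitutive beta ring carries the catalytic sites, and 6 of 6 measured members differed across the 5 zones (background 60.6%). Psmb2 was higher in the proliferative over the resting zone, with a log2 fold change of 0.61 ± 0.18 (SE, adjusted p = 0.023), and again in the transition over the proliferative zone, at 0.56 ± 0.18 (SE, adjusted p = 0.0259). The first of these calls was lost without the animal block (adjusted p = 0.0611) and without animal 2 or 3. Psmb4 was lower in the hypertrophic over the proliferative zone, with 10370 ± 1838 against 14150 ± 1938 (SD, n = 5 each), no overlap between arrays and a log2 fold change of -0.46 ± 0.12 (SE, adjusted p = 0.00382). Psmb5, the chymotrypsin-like site, and Psmb7, the trypsin-like site, had log2 fold changes of 0.45 and 0.45 in the proliferative over the resting zone, which did not pass the test.

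Assembly chaperones split into opposite patterns. Psmd5, which guides assembly of the ATPase ring, was highest in the hypertrophic zone. It gave 1364, 1174, 1042 and 657 in epiphyseal cartilage and 1086, 988, 992, 808 and 817 in the resting zone. Its signals were 1316, 1054, 1015, 805 and 693 in the proliferative, 1390.3, 1221, 1174, 1284 and 1644 in the transition and 2225, 2063, 1873, 1849 and 1627 in the hypertrophic zone. Every hypertrophic array lay above every proliferative array, and the log2 fold change was 1.00 ± 0.15 (SE, adjusted p = 1.42e-05). Its further rise over the transition zone, 0.52 ± 0.15 (SE, adjusted p = 0.0164), was lost with arrays scaled to one median, without the animal block and without animal 1, 2 or 3.

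Psmg1 and Psmg4, chaperones of the 20S core, fell in the hypertrophic zone. Psmg1 gave 1099, 1025, 1770, 1268 and 986 in the hypertrophic zone, against 2502, 1879.7, 2594, 1856 and 2605 in the transition zone, with no overlap and a log2 fold change of -0.90 ± 0.16 (SE, adjusted p = 0.000168). Psmg4 gave 821, 924, 941, 1151 and 769 in the hypertrophic zone, against 1363, 1394, 1441, 1970.1 and 1456 in the transition zone and 1712, 2027, 1993, 1481 and 1458 in the proliferative zone. The log2 fold change of Psmg4 was -0.72 ± 0.16 (SE, adjusted p = 0.00169) over the transition zone and -0.90 ± 0.16 (SE, adjusted p = 6.19e-05) over the proliferative zone. Both falls kept their call under every alternative run. Psmg2 was higher in the proliferative over the resting zone by 0.63 ± 0.20 (SE, adjusted p = 0.0381), a call lost without the animal block and without animal 2. Psmd10 (adjusted p = 0.894) and Psmg3 (adjusted p = 0.49) did not differ across zones by the F test.

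Psme4 had the smallest F test p of the set. It encodes PA200, a cap that binds the core without ATPase activity and is linked, in the mouse testis, to the degradation of acetylated histones. Its signals were 5425, 7799.8, 9019 and 8391 in epiphyseal cartilage and 3459.9, 5761, 5181, 4704 and 6176 in the resting zone. They were 4341, 5026, 4133, 3828 and 4631 in the proliferative, 9156, 11156, 6902, 9434 and 7848 in the transition and 25125, 24479.8, 14904, 18180.4 and 22824 in the hypertrophic zone. The arrays of the last 3 zones did not overlap. The fitted log2 fold change was 1.00 ± 0.16 (SE, adjusted p = 4.64e-05) in the transition over the proliferative zone, 1.24 ± 0.16 (SE, adjusted p = 3.88e-06) in the hypertrophic over the transition zone and 2.24 ± 0.16 (SE, adjusted p = 5.94e-11) in the hypertrophic over the proliferative zone.

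All 3 Psme4 changes kept their call under every alternative run, and both other probe sets of the gene were called the same way, with log2 fold changes of 1.48 and 2.65 in the hypertrophic over the proliferative zone. Psme4 followed the 26S mean only loosely (r = 0.346, 24 arrays). The genes whose log2 signal correlated best with Psme4 over the 24 arrays were Atg4a (r = 0.947), Gpx2 (0.944), Tars3 (0.941), Stk38l (0.936) and Enpp2 (0.935). Psmf1, an inhibitor of the core, passed the F test across the resting, proliferative and hypertrophic zones (adjusted p = 0.0468) but no comparison between a pair of zones. It averaged 2002 ± 120.5 in the hypertrophic zone and 1623 ± 256 in the proliferative zone (SD, n = 5 each).

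**Figure D4:**
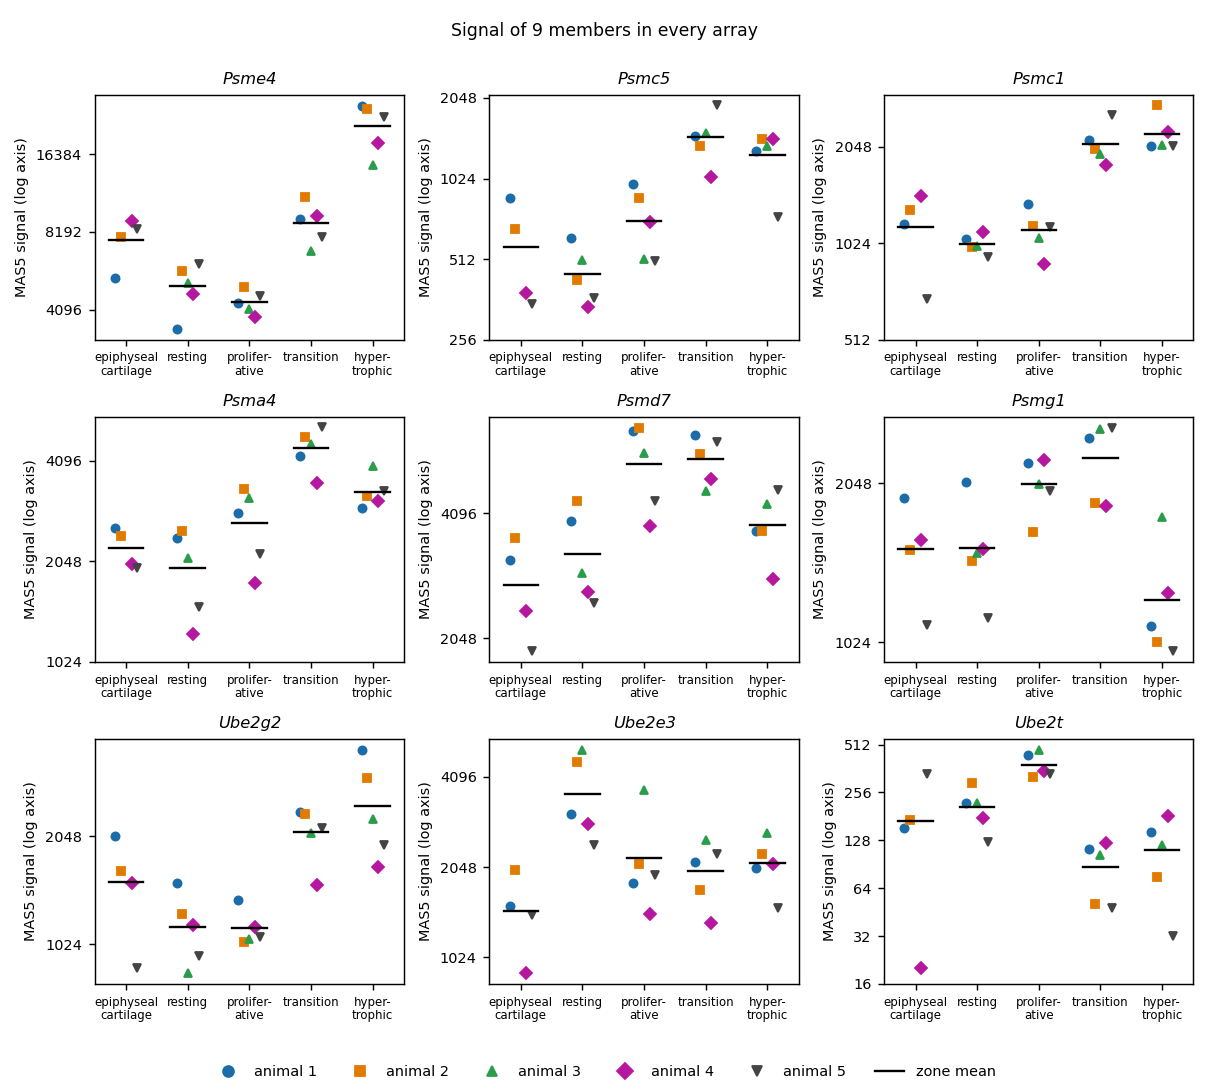
MAS5 signal in every array (log axis) of 9 members by zone, with 1 symbol per animal and a bar at the zone mean. Psme4 averages 21100 in the hypertrophic zone, against 4392 in the proliferative zone, Psmg1 falls in the hypertrophic zone, and Ube2t peaks in the proliferative zone at 383.

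Immunoproteasome genes replace the constitutive catalytic subunits in immune cells and under interferon. Psmb8 gave 333, 194, 17.3 and 93.5 in epiphyseal cartilage and 134, 24, 18.1, 29.2 and 121 in the resting zone. Its signals were 10.9, 57.5, 121, 57.8 and 9 in the proliferative, 36.1, 5.9, 16.6, 13.8 and 9.8 in the transition and 143, 259, 121, 452 and 219 in the hypertrophic zone. Every hypertrophic array lay above every transition array. The signal was above the array median in 3 of 5 hypertrophic arrays, against 0 of 5 transition arrays, and elsewhere only in 2 epiphyseal arrays. Since Psmb8 passed the filter through these arrays alone, its values are a description, and no fold change is given.

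Psmb9 gave 449, 211, 24.7 and 186 in epiphyseal cartilage and 114, 58.2, 51.9, 20.3 and 22.7 in the resting zone. Its signals were 79.3, 32.9, 80.3, 57.3 and 173 in the proliferative, 13.6, 105, 17.5, 35.1 and 4.5 in the transition and 275, 196, 179, 241 and 24.9 in the hypertrophic zone. The hypertrophic array of animal 5 lay within the transition range and the other 4 above it. The signal was above the array median in 4 of 5 hypertrophic arrays, against 0 of 5 transition arrays, and elsewhere only in 2 epiphyseal arrays, so its values are likewise a description.

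Psmb10, the third of these genes, gave 728, 635, 608 and 698 in epiphyseal cartilage and 539.6, 504, 186, 475 and 453 in the resting zone. Its signals were 701, 786, 656, 875 and 716 in the proliferative, 486, 412, 616, 850.5 and 734 in the transition and 567, 868, 599, 924 and 535 in the hypertrophic zone. The resting arrays all lay below the epiphyseal and the proliferative arrays. The fold change over epiphyseal cartilage did not pass the test (adjusted p = 0.213), while that of the proliferative over the resting zone did, with a log2 fold change of 0.85 ± 0.22 (SE, adjusted p = 0.00987), which was lost without animal 3, whose resting array was the lowest.

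PA28, the interferon-induced cap, is built of the products of Psme1 and Psme2. Psme1 averaged 1474 ± 189.8 in the hypertrophic zone, against 921 ± 99.2 in the transition zone and 730.4 ± 113 in the proliferative zone (SD, n = 5 each). Its log2 fold change was 1.00 ± 0.22 (SE, adjusted p = 0.000727) over the proliferative zone and 0.67 ± 0.22 (SE, adjusted p = 0.0288) over the transition zone. The rise over the transition zone was lost with arrays scaled to one median, without animal 2, 4 or 5 and without the hypertrophic array of animal 4 or 5. Psme2 averaged 1092 ± 227 in the hypertrophic zone and 889.6 ± 255 in the transition zone (SD, n = 5 each), and passed no test. Ube2l6, the E2 of the interferon-induced modifier Isg15, was higher in the hypertrophic over the transition zone by 0.89 ± 0.28 (SE, adjusted p = 0.0235), lost under the same scaling, under quantile normalization, without animal 2, 4 or 5, without the transition array of animal 5 and without the hypertrophic array of animal 4.

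Markers of blood-derived cells were also higher in the hypertrophic over the transition zone, a comparison in which Psmb10 and Psme2 passed no test. The summed signal of 6 leukocyte markers ranged from 2745 to 10590 in the hypertrophic zone, against 544 to 2131 in the transition zone, and that of 7 osteoclast and macrophage markers from 8977 to 85150 in the hypertrophic zone, against 1208 to 2119 in the transition zone. Ptprc, which encodes the leukocyte surface protein CD45, averaged 186 in the hypertrophic zone and 38.1 in the transition zone. Of these markers, 1 of the 6 leukocyte and 1 of the 7 osteoclast and macrophage genes lay above the array median in all transition arrays. The marker values are therefore a description. Of the 4 tested genes of the interferon and antigen processing list, 2 were higher in the hypertrophic over the transition zone (background 12.9%), Irf1 by 1.41 and B2m by 1.12 on the log2 scale. Irf1 was dim in the transition zone, at a mean of 92.1. The part of these cells in the immunoproteasome result was not tested.

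**Figure D5:**
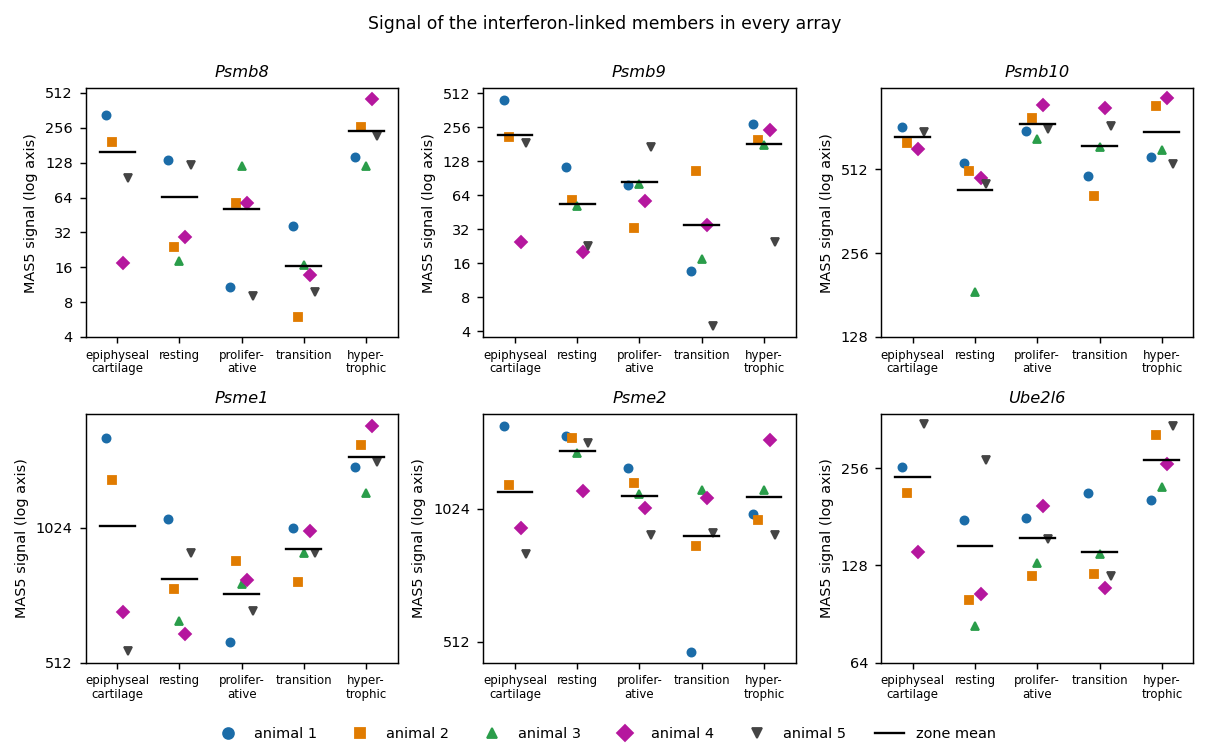
MAS5 signal in every array (log axis) of Psmb8, Psmb9, Psmb10, Psme1, Psme2 and Ube2l6 by zone, with 1 symbol per animal and a bar at the zone mean. Psmb8 averages 239 in the hypertrophic zone and 16.4 in the transition zone, whereas Psmb10 and Psme2 overlap between these zones.

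The ubiquitin-conjugating enzymes held calls in both directions. Of 26 tested, 2 were higher and 1 lower in the proliferative over the resting zone (background 8.22% and 7.45%), and 6 were higher and 1 lower in the transition over the proliferative zone (background 10.8% and 13%). In the hypertrophic over the transition zone 2 were higher and 2 lower (background 12.9% and 13.1%), and over the proliferative zone 8 were higher and 3 lower (background 19.3% and 22.5%). Their highest zone mean lay in the transition zone for 12 of 26 (46.2%), against 20.5% of all tested genes. Their median log2 fold change was 0.01 in the proliferative over the resting zone and 0.27 in the transition over the proliferative zone.

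Ube2g2, the E2 of degradation from the endoplasmic reticulum, had the smallest F test p among them. It gave 2051, 1639, 1513 and 878 in epiphyseal cartilage and 1516, 1245, 851, 1158 and 945 in the resting zone. Its signals were 1356, 1039.6, 1058, 1139 and 1073 in the proliferative, 2389, 2356, 2086, 1498 and 2152 in the transition and 3549, 2969.5, 2289.7, 1678 and 1933 in the hypertrophic zone. No array of the last 2 zones overlapped with a proliferative array. On the log2 scale the change was 0.87 ± 0.16 (SE, adjusted p = 0.000338) in the transition and 1.08 ± 0.16 (SE, adjusted p = 9.77e-06) in the hypertrophic zone, each over the proliferative zone.

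Ube2f conjugates the ubiquitin-like modifier Nedd8 to cullins rather than ubiquitin. It gave 1256, 1199, 1409 and 972 in epiphyseal cartilage and 1160.2, 979, 1384, 1087 and 1046 in the resting zone. Its signals were 1382, 1307, 1646, 1098 and 1190.2 in the proliferative, 2290.4, 1544, 2973, 1825 and 2750.1 in the transition and 1469.7, 1487, 2160.2, 1658 and 2048 in the hypertrophic zone. The transition array was the higher in 5 of 5 animals, and the log2 fold change over the proliferative zone was 0.75 ± 0.15 (SE, adjusted p = 6e-04), a call lost when the gene's probe sets were averaged. The other tested probe set of Ube2f gave -0.14 there and did not pass the test. Ube2v2, the inactive partner with which Ube2n builds a chain type that serves signalling, was higher in the same comparison by 0.86 ± 0.18 (SE, adjusted p = 0.00102), with no overlap between arrays.

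Ube2e3 and Ube2t had courses of their own. Ube2e3 gave 3073, 4579, 5028, 2848 and 2425 in the resting zone, against 1524, 2007, 910 and 1420.5 in epiphyseal cartilage, with no overlap and a log2 fold change of 1.15 ± 0.18 (SE, adjusted p = 0.000402). It was lower in the proliferative over the resting zone, with 2193 ± 875 against 3590 ± 1142 (SD, n = 5 each) and a log2 fold change of -0.73 ± 0.17 (SE, adjusted p = 0.00431), lost without the animal block. Ube2t, the E2 of the Fanconi anaemia pathway of DNA repair, gave 112, 50.6, 103, 123 and 48 in the transition zone, against 441, 321, 472, 348 and 335 in the proliferative zone, with no overlap. Its signal was above the array median in 0 of 5 transition and 1 of 5 hypertrophic arrays, against 5 of 5 proliferative arrays, so the size of its fall depends on signals that are dim in the later zones. The log2 fold change of Ube2t was -2.01 ± 0.45 (SE, adjusted p = 0.0019) in the transition and -1.80 ± 0.45 (SE, adjusted p = 0.00249) in the hypertrophic zone, each over the proliferative zone. In the same comparisons 12 of 12 and 10 of 12 cell cycle markers were lower (background 13% and 22.5%). Their summed signal ranged from 3937 to 6491 in the transition and from 5690 to 13310 in the hypertrophic zone, against 13640 to 22720 in the proliferative zone, and their part in the fall of Ube2t was not tested.

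The hypertrophic zone held other differences. Ube2h, which works in human cells with the CTLH ligase, averaged 430 ± 83.5 in the hypertrophic zone and 189 ± 60.1 in the proliferative zone (SD, n = 5 each), with a log2 fold change of 1.14 ± 0.22 (SE, adjusted p = 0.000193). Ube2r2, which works with cullin ligases, was higher over the proliferative zone by 0.73 ± 0.17 (SE, adjusted p = 0.00117). Ube2d2 averaged 1808 ± 469 in the hypertrophic zone and 2996 ± 649 in the transition zone (SD, n = 5 each), with a log2 fold change of -0.74 ± 0.14 (SE, adjusted p = 0.000447). The fall of Ube2d2 did not pass the test in either of its 2 other probe sets, whose log2 fold changes were -0.26 and 0.11 there. In the proliferative over the resting zone, Ube2l3 was higher by 0.58 ± 0.16 (SE, adjusted p = 0.0142), a call lost without the animal block (adjusted p = 0.0806) and without animal 2 or 3. Ube2n was higher there by 0.52 ± 0.16 (SE, adjusted p = 0.032), a call lost without the animal block and without animal 2. Their other tested probe sets gave 0.38 for Ube2l3 and 0.43 for Ube2n there and did not pass the test.

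Among 18 members with further tested probe sets (24 in all), 27 pairs of a called change and a further probe set could be compared. The further probe set was called the same way in 11 of the 27 pairs and the opposite way in none. A change of a gene with several further probe sets, such as Psme4, enters once for each of them, so the pairs are not separate changes.

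The other genes of the pathway were read against the same shares of all tested genes. Of 17 tested genes for proteasome assembly, shuttling and regulation, 4 were higher and 1 lower in the proliferative over the resting zone (background 8.22% and 7.45%), 3 were higher in the transition over the proliferative zone (background 10.8%), and 4 were lower in the hypertrophic over the transition zone (background 13.1%). Their median log2 fold changes were 0.32, 0.35 and -0.12. The shuttle gene Ubqln2 was higher in the proliferative over the resting zone, with a log2 fold change of 0.78 (adjusted p = 0.0122), and lower in the hypertrophic over the transition zone, at -1.28 (adjusted p = 7.52e-05). Nfe2l1, the transcription factor known to raise proteasome genes when the protease is inhibited, was higher in the hypertrophic over the proliferative zone by 0.77 (adjusted p = 0.0089), and the ubiquitin receptor Adrm1 by 0.78 (adjusted p = 0.00872).

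Of 7 tested genes for ubiquitin and activating enzymes, Sae1, part of the activating enzyme of the modifier Sumo, was higher in the proliferative over the resting zone and Uba6, a ubiquitin-activating enzyme, lower in the hypertrophic over the transition zone, and no other was called in any comparison. Of 4 tested conjugating enzymes without a Ube2 symbol, 2 were higher in the proliferative over the resting (background 8.22%), 2 in the transition over the proliferative (background 10.8%) and 2 in the hypertrophic over the proliferative zone (background 19.3%). Of 27 tested ubiquitin ligases, 4 were higher and 4 lower in the hypertrophic over the proliferative zone (background 19.3% and 22.5%), among them Nedd4l, higher by 1.54 (adjusted p = 2.91e-05), and Stub1, lower with a log2 fold change of -0.78 (adjusted p = 7.78e-05). Of 18 tested deubiquitinases, 1 was higher and 3 lower in that comparison, against the same background. Usp5, which recycles free ubiquitin chains, was higher in the proliferative over the resting zone by 0.84 (adjusted p = 0.000174) and in the transition over the proliferative zone by 0.78 (adjusted p = 3e-04), and lower in the hypertrophic over the transition zone, at -0.74 (adjusted p = 0.000499). Usp14, a deubiquitinase bound to the 19S cap, was higher in the proliferative over the resting zone by 0.67 (adjusted p = 0.0014).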

How the data were processed

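RNA from each zone and animal was measured on 1 array. The deposited values are MAS5 intensity (signal) values, 1 for each probe set and not logged, as the submitters' processing notes name the tool. The MAS5 version was not given in the sources used here. Per the values, the authors scaled each array to one mean, since the mean without the lowest and highest 2% lay between 500.1 and 500.2 on all arrays. This scaling makes the signals relative within an array.

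Control probe sets (57) were left out, and the 19213 probe sets above the array median in at least 4 of the 24 arrays were tested. Values were analysed as log2(signal + 16), so fold changes of dim probe sets are understated. A model with the 5 zones and the animal as a block (15 residual degrees of freedom) was fitted with limma 3.58.1 in R 4.3.3, with a variance trend. Adjusted p-values are Benjamini-Hochberg over all tested probe sets, called below 0.05. Each gene was represented by its probe set of highest mean log2 signal. Python 3.11.15 with matplotlib 3.10.9 made the plots. Scripts were tested on simulated data.

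Gene names came from the platform annotation, in which 20826 probe sets had 1 symbol, 436 several and 9780 none. Members and gene lists were chosen with earlier results of these data known. Named genes are, per comparison, up to 8 members with the smallest adjusted p in each direction, members with a called fold of at least 2, the immunoproteasome and activator genes, and up to 4 genes from each other list. Array values are given for the 12 members with the smallest F test p and the immunoproteasome genes, and for further members where a comparison turns on them. Psmd4, Psmd10, Psmd14, Psma2, Psmb5, Psmb7, Psmg3 and Ube2k fall outside this rule or were named after their values were seen.

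The replicate numbers in the labels name the animal, and arrays of one animal deviated together from their zone means, with a median correlation of 0.176 over 46 pairs (lowest -0.142, highest 0.36), against -0.046 over 184 pairs of different animals. Alternatives covered the pseudocount, scaling, filter, block, variance trend, array weights, probe set choice, the arrays fitted, and each animal left out in turn. Fits that left out animal 5's transition array, a hypertrophic array (animal 4 or 5), or the epiphyseal arrays of animals 1 and 2 were chosen after seeing the data.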

Additional observations from a re-analysis of the deposited data

Results flagged for a closer look

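Of 85 zone groups of 4 or 5 arrays examined for the members given array by array and for the set means, 4 held 1 array far from the rest, and chance alone marks about 1 in 20 such groups. The hypertrophic array of animal 5 gave a Psmc5 signal of 736, against 1297 to 1438 in the other 4 hypertrophic arrays. The same array gave a Psmb9 signal of 24.9, against 179 to 275 in the other 4. Its mean log2(signal + 16) over the 26S subunits was 11.01, against 11.37 to 11.49 in the other 4. The resting array of animal 3 gave a Psmb10 signal of 186, against 453.3 to 539.6 in the other 4 resting arrays.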

How the results depend on the processing

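Of 51 called changes of named members, 27 kept their call under every alternative run. Over 1059 combinations of a called change and an alternative, 92 lost the call and none changed direction. The number of members differing across the 5 zones ranged from 45 to 53 with 1 animal left out, and across the resting, proliferative and hypertrophic zones from 33 to 46. With 1 animal left out, members higher and lower ranged from 1 to 1 and 0 to 0 in the resting over epiphyseal comparison, 4 to 11 and 1 to 1 in the proliferative over resting, 14 to 17 and 1 to 2 in the transition over proliferative, 2 to 5 and 5 to 10 in the hypertrophic over transition, and 12 to 18 and 6 to 7 in the hypertrophic over proliferative comparison.

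Without the replicate block of the animal, the count of members was 3 higher and 0 lower in the proliferative over resting, 11 higher in the transition over proliferative, 5 lower in the hypertrophic over transition and 13 higher in the hypertrophic over proliferative comparison.

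With array weights, members lower numbered 2 in the resting over epiphyseal comparison, members higher 23 and lower 2 in the proliferative over resting, and members lower 2 in the transition over proliferative comparison. With only the zones compared in the fit, 1 was lower in the resting over epiphyseal, 23 higher and 2 lower in the proliferative over resting, 6 lower in the hypertrophic over transition and 13 higher in the hypertrophic over proliferative comparison. With one median for all arrays, 3 members rose and 28 fell in the hypertrophic over transition and 12 higher in the hypertrophic over proliferative comparison, and with quantile normalization 6 were lower in the hypertrophic over transition comparison. With the filter at the 75th percentile, 0 were lower in the transition over proliferative and 4 higher in the hypertrophic over transition comparison, since fewer members were tested. When probe sets of one gene were averaged, 2 were lower in the transition over proliferative and 4 in the hypertrophic over proliferative comparison. Of the alternatives chosen after seeing the data, leaving out the hypertrophic array of animal 4 gave 2 lower in the proliferative over resting and 2 lower in the transition over proliferative comparison, and leaving out the epiphyseal arrays of animals 1 and 2 gave 2 lower in the last. Lower calls in the hypertrophic over transition comparison numbered 5 without the transition array of animal 5 and 6 without the hypertrophic array of animal 5. The causes were not tested otherwise. Dim members such as Psmb8 and Psmb9, above the array median in 5 and 6 arrays, were limited by signal over background.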
